A study of Homo sapiens with 6 samples.

Results

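The genes described here encode the chains of collagens and laminins and the subunits of integrins. They were chosen by name alone, as every gene of the deposited table whose symbol is COL, LAM or ITG followed by the designation of a chain or subunit. This gave 80 of 17687 genes, of which 41 were collagens, 12 were laminins and 27 carried an integrin name. One of the integrin-named genes, ITGBL1, encodes a secreted protein with integrin beta-like repeats and no receptor subunit.

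RNA was sequenced from KHM-5M, an established human cell line of anaplastic thyroid cancer, in 3 groups of 2 libraries. The control group received PBS, the SS group received sodium selenite (SS), and the SS+NAC group received SS together with the antioxidant N-acetylcysteine (NAC). All groups came from this single line grown in RPMI-1640 with fetal bovine serum, and cells given NAC alone were not analysed here. The methods of the study call the libraries of a group biological replicates. The p-values below rest on the spread between the 2 libraries of a group, estimated together over all 3 groups. Those of SS against control therefore also carry the spread between the SS+NAC libraries. In bulk RNA, fewer cells of a kind and less RNA per cell cannot be told apart.

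Collagens are secreted proteins whose chains wind around one another into helices, which then build fibrils, networks or filaments outside the cell. Laminins join an alpha, a beta and a gamma chain into the cross-shaped molecules of the basement membrane, the sheet on which thyroid follicle cells rest. Integrins pair an alpha with a beta subunit at the cell surface, bind these matrix proteins outside and connect through adaptor proteins to actin inside.

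The libraries held between 17645545 and 23810056 expected counts. Keratins and vimentin were both abundant, with KRT8 between 491 and 828 FPKM (fragments per kilobase of length, scaled by depth) and VIM between 2887 and 3922 FPKM. Of the thyroid markers, PAX8 lay between 61.6 and 68.6 FPKM, while TG, SLC5A5, NKX2-1 and FOXE1 each stayed at or under 0.80 FPKM in every library. The 4 endothelial and the 4 blood markers each summed to less than 0.5 FPKM per library. The summed level of 6 epithelial markers was 1094 to 1125 FPKM in control, 1331 to 1523 in SS and 886 to 1077 in SS+NAC, with CDH1 at 0.08 to 0.15 FPKM. KRT8 and KRT18 made up most of it, while EPCAM was at 3.11 and 2.60 FPKM in control and lower in SS, at 2.21 and 2.35 FPKM. KRT7 was higher in SS, at 37.5 and 40.3 FPKM beside 30.6 and 31.1 FPKM in control. The summed level of 8 mesenchymal markers was 3656 to 3833, 4297 to 4371 and 3866 to 3895 FPKM in the same order of groups. VIM made up most of this sum, with 3013 and 3196 FPKM in control and 3724 and 3922 FPKM in SS. THY1 was also higher in both SS libraries, at 37.6 and 34.8 FPKM beside 32.2 and 32.8 FPKM in control. Both SS libraries lay below control for FN1 (579 and 572 against 509 and 391.7 FPKM), CDH2 (24.7 and 26.9 against 20.1 and 18.3 FPKM) and PDGFRB (2.89 and 2.91 against 2.42 and 2.03 FPKM). The fitted change of FN1 is given below. The part of these differences in the results below was not tested.

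The sequences upstream of a few of these genes are shown as examples of members that neighbour each other, fell or rose. COL4A1 and COL4A2, the chains of the common type IV collagen, start back to back on chromosome 13, and their RefSeq start sites lie 127 bases apart on GRCh38.p14. The 126 bases between them, at chr13:110307158-110307283 and written along the strand of COL4A2, hold a CCAAT box (CCAAT) and a GC box (GGGCGG), in capitals. ITGB1, the beta subunit shared by the largest number of integrins, was the most abundant member and fell after SS. The 250 bases before one of its starts, at chr10:32958231-32958480 on the minus strand, hold 3 GC boxes, one of them on the other strand, and the core of an antioxidant response element (TGACNNNGC), in capitals. ITGAE, the alpha subunit of the receptor for E-cadherin on lymphocytes of epithelia, rose after SS. The 250 bases before its start, at chr17:3801189-3801438 on the minus strand, matched none of these motifs on either strand. The same held for the 250 bases before ITGAV (chr2:186589806-186590055) and before ITGA4 (chr2:181457136-181457385), integrins that both fell after SS.
COL4A1-COL4A2: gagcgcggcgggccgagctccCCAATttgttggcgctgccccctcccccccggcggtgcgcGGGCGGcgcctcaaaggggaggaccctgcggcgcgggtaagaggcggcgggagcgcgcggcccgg
ITGB1: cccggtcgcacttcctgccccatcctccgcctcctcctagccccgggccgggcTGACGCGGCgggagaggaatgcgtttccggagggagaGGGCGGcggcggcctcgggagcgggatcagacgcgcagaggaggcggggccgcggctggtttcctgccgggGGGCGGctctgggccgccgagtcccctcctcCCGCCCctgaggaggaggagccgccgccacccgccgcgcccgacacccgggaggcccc
ITGAE: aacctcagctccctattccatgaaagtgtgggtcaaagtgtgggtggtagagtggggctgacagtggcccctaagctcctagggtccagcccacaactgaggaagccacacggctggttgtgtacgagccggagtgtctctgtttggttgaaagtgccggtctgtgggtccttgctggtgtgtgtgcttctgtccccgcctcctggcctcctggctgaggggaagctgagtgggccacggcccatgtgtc

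RefSeq promoter windows, which run from 250 bases before to 50 bases after a start, were found for 56 of the 80 genes in 72 windows. Searched on both strands, the GC box stood in 59.7% of these windows and in 45.0% of all 35116 windows. The CCAAT box was found in 26.4% against 34.6%, and TATAAA in 13.9% against 11.5%. The AP-1 site TGANTCA was found in 5.56% against 7.71%, and TGACNNNGC in 8.33% against 13.3%. The last 2 motifs can match the same bases, and a match describes the sequence only. The median GC content was 62.0% in the members' windows and 58.7% in all windows.

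In the control cells 40 of the 80 genes had a mean of at least 1 FPKM and 17 of at least 10 FPKM. The highest levels per length were those of ITGB1, at 242 ± 15.8 FPKM (SD, n = 2), of ITGA3, a laminin receptor subunit, at 141 ± 0.65 FPKM, and of COL1A1, the main chain of fibrillar type I collagen, at 111 ± 0.12 FPKM. LAMB3 followed at 69.1 ± 2.1 FPKM, COL6A2 at 61.9 ± 1.2 FPKM and ITGA6 at 50.9 ± 1.5 FPKM. ITGB5 had 42.1 ± 0.71 FPKM, COL4A2 41.3 ± 0.13 FPKM and ITGA5, the fibronectin receptor subunit, 41.0 ± 0.42 FPKM. The differences among these last 3 were of the order of the spread between libraries. Thus 5 integrins stood among the 9 highest members.

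**Figure D1:**
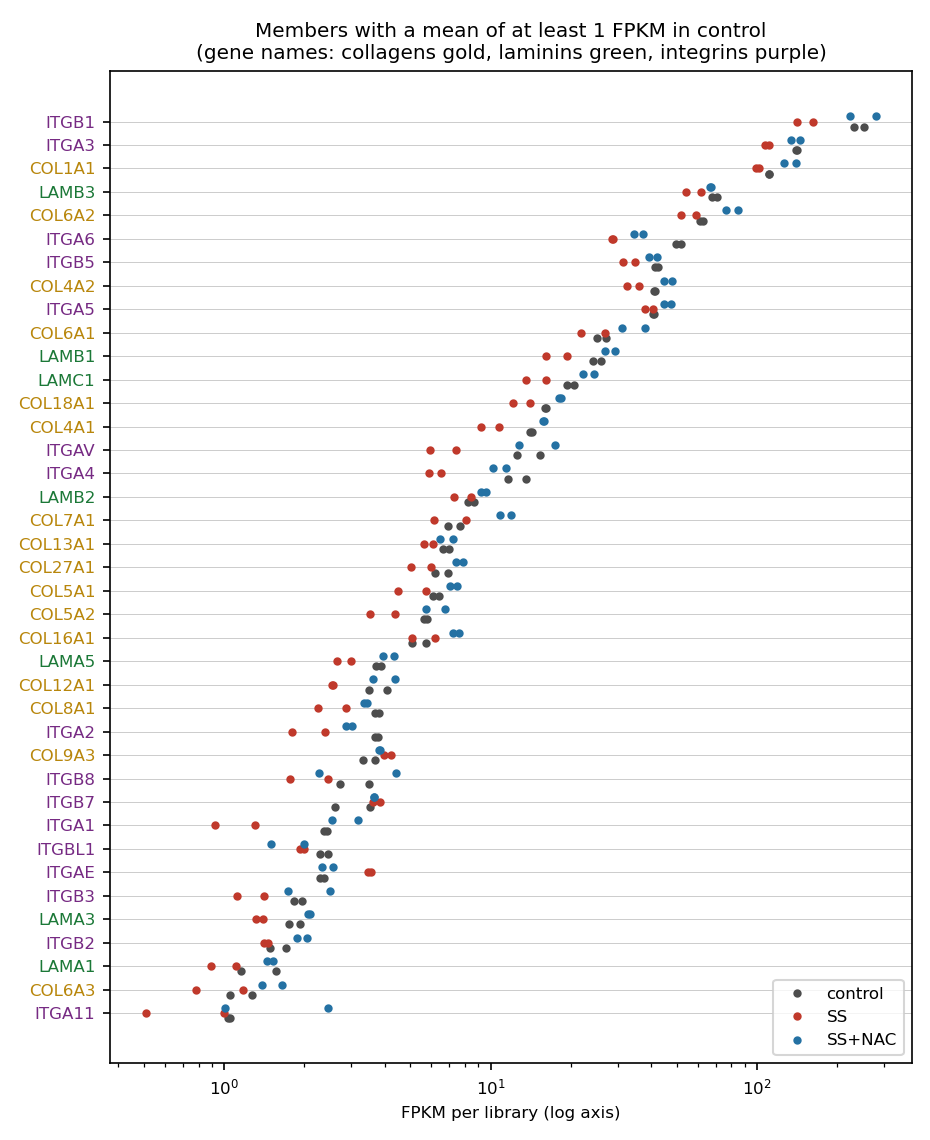
FPKM in each of the 6 libraries (points, log axis) for 39 genes with a control mean of at least 1 FPKM, ordered by that mean, with gene names coloured by family. ITGB1, ITGA3 and COL1A1 lie at the top, the red SS points of ITGAV and ITGA1 lie clearly left of the other groups, and those of ITGAE lie right of them.

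Chains that assemble together were present at unequal levels. COL1A1 had 623 and 637 CPM (counts normalised to the scaled library size) in control, while COL1A2, its partner in type I collagen, had at most 3 counts in any library, and COL3A1, the chain of type III collagen, at most 1. Among the type VI collagen chains, COL6A3 had 1.16 ± 0.16 FPKM in control beside 26.1 ± 1.4 FPKM for COL6A1 and the level of COL6A2 given above. For the type IV chains the control level was 14.2 ± 0.21 FPKM for COL4A1, below that of COL4A2, and COL4A5 had a mean of 0.385 FPKM. COL4A6, which starts next to COL4A5, had at most 2 counts in any library. Of the laminin chains, LAMA3, a partner of LAMB3, had 1.84 ± 0.12 FPKM. The chains of laminin-511 ran from LAMB1 at 25.1 ± 1.3 FPKM over LAMC1 at 20.0 ± 0.80 FPKM to LAMA5 at 3.80 ± 0.13 FPKM. ITGB4, the partner of ITGA6 in hemidesmosomes, was at 0.21 ± 0.085 FPKM in control.

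Of the 80 genes, 57 passed the filter on low counts and were tested, namely 26 collagens, 9 laminins and 22 integrins. The other 23 had at most 10 counts in any library, and 15 of them had no more than 3 counts in every library. Besides those named above, these were COL2A1, COL4A3, COL5A3, COL6A5, COL11A1, COL14A1, COL19A1, COL20A1, COL22A1, COL23A1, COL25A1, COL28A1, LAMA4, LAMB4, LAMC3, ITGA2B, ITGA9, ITGAD, ITGAM and ITGB6. A count of 0 allows up to 3 counts, which is 0.124 to 0.167 CPM depending on the library, and covers counting error only. COL9A1, COL21A1 and COL26A1 were not analysed here. By the annotation of GENCODE 29, ITGB3 shares 51.6% of its exon bases with AC068234.1 on the same strand, ITGB7 shares 51.4% with ZNF740 and ITGBL1 73.5% with FGF14, both on the opposite strand. The values of these 3 genes are uncertain. Reads in the part shared with AC068234.1 cannot be assigned by strand, and for ITGB7 and ITGBL1 the strand of the reads is not given in the sources used here.

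The 80 genes together took 0.514% and 0.498% of all counts in the control libraries, 0.402% and 0.360% in SS and 0.530% and 0.553% in SS+NAC. Both SS libraries lay below the other 4. For the integrins the shares were 0.256% and 0.244% in control, 0.177% and 0.161% in SS and 0.234% and 0.257% in SS+NAC. Laminins held 0.0826% and 0.0812%, then 0.0681% and 0.0589%, then 0.0844% and 0.0881%. Collagens held 0.176% and 0.173% in control, 0.157% and 0.140% in SS and 0.211% and 0.209% in SS+NAC, so that for this family SS+NAC lay above control as well. Within the integrins, ITGA3 made up 27.4% of the family's counts in control and 30.8% in SS, and ITGA6 11.2% and 9.24%.

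**Figure D2:**
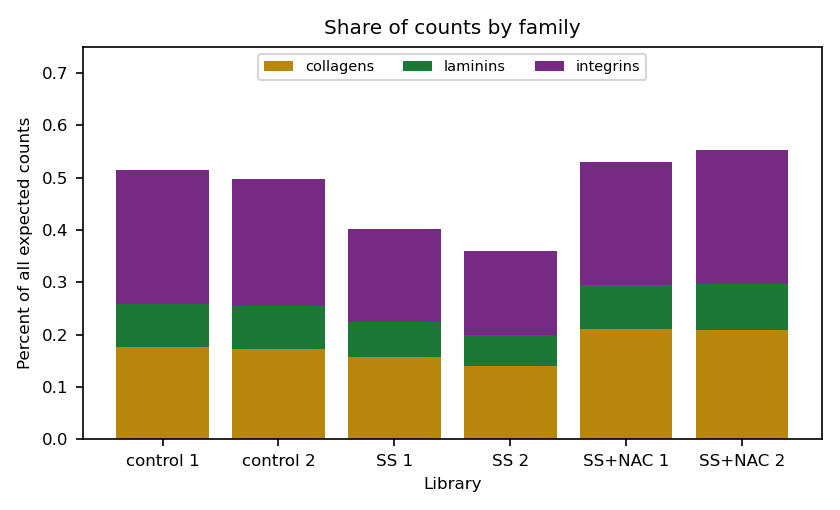
Percent of all expected counts that fell on collagens, laminins and integrins in each of the 6 libraries, as stacked bars from 0. The stacks reach 0.498 to 0.514% in control, 0.360 to 0.402% in SS and 0.530 to 0.553% in SS+NAC.

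To ask what SS did to these genes, the SS libraries were compared with control over 14005 genes by the quasi-likelihood test of edgeR. P-values were adjusted after Benjamini and Hochberg, and a gene was called where the adjusted value did not exceed 0.05. After SS, 20 of the 57 tested genes fell and 2 rose, ITGAE and COL9A3. Of all tested genes, 40.0% were called, 21.4% as lower and 18.6% as higher, so the share of members called (22 of 57) was close to that background, while most of the calls were downward. COL9A3 was not called without a filter on low counts, with a replicate block or by the Wald test of DESeq2, which left 1 higher member each. The median log2 fold change was -0.28 over the members and 0.003 over all genes. By family, 9 of 22 integrins fell and 1 rose, 5 of 9 laminins fell, and 6 of 26 collagens fell and 1 rose. Without control replicate 1 the calls on members came to 13 of 58, beside 21.8% of all genes in that fit, and without SS replicate 2 to 12 of 58, beside 22.1%.

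These are long genes. Their median effective length, the length behind FPKM, was 5514 bases, with a range of 2394 to 11602, against 3047 bases over all tested genes, and 51 of the 57 were longer than that median. In SS against control the fold change of all genes declined with length, with a Spearman correlation of -0.68 across 14005 genes. It was -0.36 across the 57 members. Both describe genes that share the same libraries and are not independent. In the longest eighth of the genes, from 6089 bases upwards, 63.5% of the 1730 other genes fell and 1.68% rose, while 10 of the 21 members in it fell and none rose. In the next eighth, from 4619 to 6088 bases, 49.1% of the other genes and 7 of 16 members fell.

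Each member was therefore set against the median of the 200 other genes nearest to it in length. These medians had a median of -0.34, close to the members' own -0.28, and 34 members lay above the median of their neighbours and 23 below. The collagens lay above it in 19 of 26 cases and the laminins in 6 of 9, whereas 13 of 22 integrins lay below. Members were then tested with a length offset, which removes from each library its smooth trend of log2 CPM over effective length before the test. With this offset 9 members were called, of which 5 were lower and 4 higher in SS, against a background of 9.23% of all genes, 5.03% lower and 4.19% higher. All 5 lower members were integrins (ITGA1, ITGA4, ITGA6, ITGAV and ITGB1). The 4 higher members were ITGAE, COL5A1, COL7A1 and LAMB2. The members' median with the offset was 0.04. With single libraries left out, the offset called 2 to 13 members, and 2 or 3 when either control or either SS library was the one left out. In those fits the background was 1.49 to 3.12% of all genes, and it was 17.1 to 17.3% without an SS+NAC library, where 13 of 58 members were called.

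**Figure D3:**
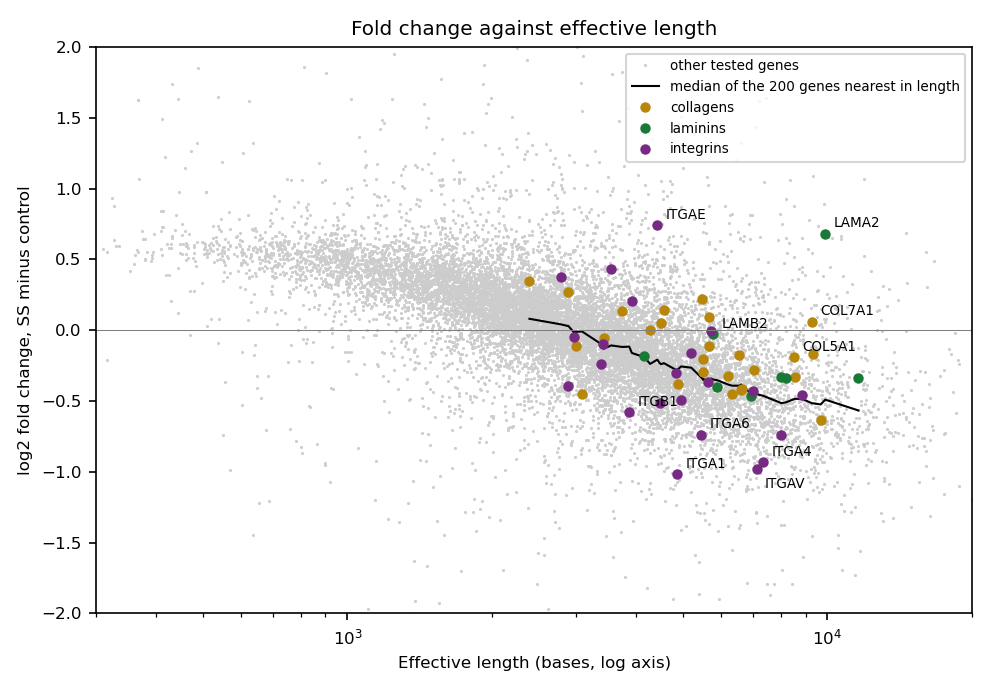
Log2 fold change of SS minus control against effective length (log axis, bases) for all tested genes (grey), with collagens, laminins and integrins coloured and the median of the 200 genes nearest in length as a line. The line falls with length, ITGA1, ITGA4 and ITGAV lie below it and ITGAE, LAMA2 and COL7A1 above it, and 60 genes fall outside the axes.

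Among the integrin alpha subunits, ITGA1, which pairs with ITGB1 to bind collagen, had the largest fall. It had 11.6 and 11.4 CPM in control, 6.45 and 4.89 CPM in SS and 12.1 and 14.5 CPM in SS+NAC. Both SS libraries were the lowest of the 6. The log2 fold change of SS minus control was -1.02 ± 0.16 (SE, edgeR adjusted p = 0.00083) and -0.75 ± 0.15 with the length offset (adjusted p = 0.013). The median of genes of like effective length (4855 bases, beside 10757 exon bases in GENCODE 29) was -0.28. The gene lies at chr5:52787896-52959210 (GRCh38, GENCODE 29) and shares 4.42% of its exon bases with PELO on the same strand.

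ITGAV, at chr2:186590065-186680901, encodes the subunit that binds RGD ligands such as vitronectin and latent TGF-beta. Control libraries had 108 and 89.2 CPM, SS libraries 53.9 and 45.7 CPM and SS+NAC libraries 89.1 and 116 CPM. The SS values lay below all others. Its log2 fold change was -0.98 ± 0.14 (edgeR adjusted p = 0.00055), and -0.54 ± 0.12 with the offset (adjusted p = 0.025). Of its beta partners, ITGB5 fell by 0.24 on the log2 scale (adjusted p = 0.025) from 136 and 143 CPM to 122 and 115 CPM, and ITGB3 by 0.50 (adjusted p = 0.041). Neither passed with the offset. Without control replicate 1, control replicate 2 or SS replicate 2 neither was called (-0.28, -0.17 and -0.20 for ITGB5 and -0.56, -0.40 and -0.38 for ITGB3), and ITGB3 was not called without SS replicate 1 either (-0.63). ITGB8 had 30.5 and 24.1 CPM in control and 22.4 and 17.0 CPM in SS (adjusted p = 0.17), and ITGB6 was not tested.

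ITGA4, at chr2:181457202-181536187, is the subunit that binds VCAM1 and fibronectin. It had 97.2 and 85.5 CPM in control, 48.5 and 47.1 CPM in SS and 73.3 and 78.5 CPM in SS+NAC. The 3 groups did not overlap, and SS+NAC stood between those of control and SS. It was the only member called with Bonferroni adjustment, with a log2 fold change of -0.93 ± 0.085 and an edgeR adjusted p of 9.7e-05 by the Benjamini-Hochberg method. With the offset the fold change was -0.49 ± 0.076 (adjusted p = 0.0048).

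ITGA6, a laminin receptor subunit at chr2:172427354-172506282, had 267 and 283 CPM in control and 160 and 170 CPM in SS. In SS+NAC it had 201 and 177 CPM, so that both treated groups lay below control. The log2 fold change of SS minus control was -0.74 ± 0.084 (edgeR adjusted p = 0.00023), and -0.41 ± 0.087 with the offset (adjusted p = 0.018). ITGA2, a collagen receptor subunit, fell as far without the offset, from 29.6 and 29.3 CPM to 19.6 and 15.6 CPM (log2 fold change -0.74, adjusted p = 0.00067). Among genes of its length the median was -0.51, and with the offset its value was -0.27 (adjusted p = 0.12).

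ITGB1, at chr10:32900319-33005792, showed 962 and 891 CPM in control, 645 and 596 CPM in SS and 849 and 1013 CPM in SS+NAC. The SS libraries were lowest, and control and SS+NAC overlapped. Its log2 fold change was -0.58 ± 0.10 (edgeR adjusted p = 0.0014), where genes of like length had a median of -0.12, and with the offset it was -0.42 ± 0.085 (adjusted p = 0.015). Its abundant partner ITGA3 fell by 0.30 on the log2 scale (adjusted p = 0.014), from 675 and 679 CPM to 545 and 555 CPM. That call was lost without any 1 of the control or SS libraries, with log2 fold changes from -0.32 to -0.27 and adjusted p-values of edgeR up to 0.133. With the offset ITGA3 stood at -0.03 (adjusted p = 0.85). ITGA5 had 142 and 145 CPM in control and 135 and 134 CPM in SS (log2 fold change -0.10, adjusted p = 0.34).

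ITGAE, at chr17:3714628-3801243, went the other way. Its CPM values were 9.73 and 10.1 in control, 16.2 and 17.0 in SS and 10.2 and 10.6 in SS+NAC. Both SS libraries stood above all others. The log2 fold change was 0.74 ± 0.11 (edgeR adjusted p = 0.0006) and 0.96 ± 0.10 with the offset (adjusted p = 0.0009), where genes of its length had a median of -0.21. The call held in both forms without any single library. ITGB7, its partner in the receptor for E-cadherin, had 7.06 and 9.72 CPM in control and 11.0 and 11.0 CPM in SS (adjusted p = 0.066).

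**Figure D4:**
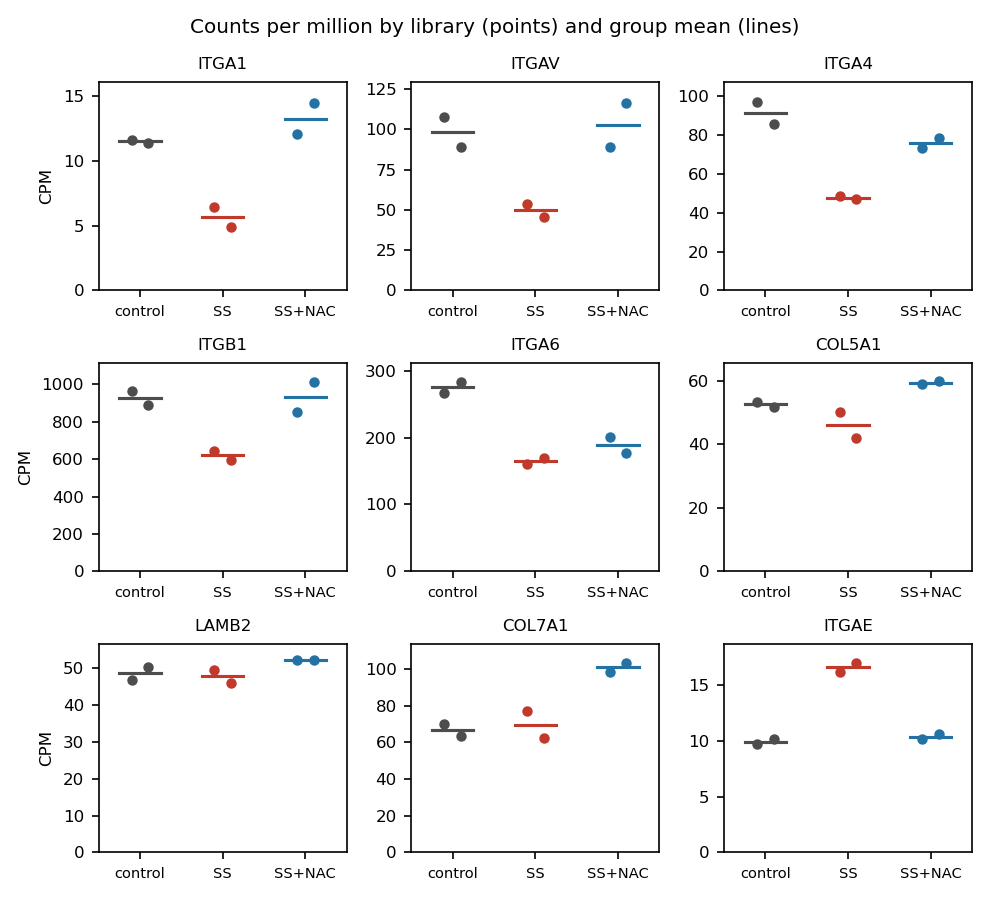
CPM in each library (points) and the mean of each group (lines) for the 9 genes called in SS against control with the length offset, on axes from 0. ITGA1, ITGAV, ITGA4 and ITGB1 are lowest in both SS libraries, ITGA6 is below control in both treated groups, ITGAE is highest in both SS libraries, and COL7A1 and LAMB2 overlap between control and SS.

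With the offset, the calls on the 5 lower integrins depended on single libraries. Without control replicate 1 none of them was called, with log2 fold changes of -0.74 for ITGA1, -0.46 for ITGA6, -0.42 for ITGAV, -0.41 for ITGA4 and -0.37 for ITGB1. Without control replicate 2 the calls on ITGA4 and ITGAV were left, without SS replicate 1 that on ITGA1, and without SS replicate 2 that on ITGA4. The direction was kept in each of these cases, and without the offset all 5 stayed called whichever library was left out.

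LAMA3, LAMA5, LAMB1 and LAMC1 were among the laminin chains that fell. LAMB1 went from 150 and 142 CPM to 118 and 104 CPM, with a log2 fold change of -0.40 ± 0.083 (edgeR adjusted p = 0.0038). LAMC1 went from 152 and 164 CPM to 132 and 119 CPM (-0.33 ± 0.082, adjusted p = 0.0088), and LAMA5 from 44.4 and 42.7 CPM to 35.7 and 33.3 CPM (-0.33 ± 0.079, adjusted p = 0.0071). All chains of laminin-511 thus fell by similar amounts without the offset. LAMA3 had a log2 fold change of -0.46 (adjusted p = 0.0067). The call on LAMB1 held whichever library was left out. That on LAMA3 was lost without control replicate 1 (-0.44), that on LAMA5 without either control library or SS replicate 2 (-0.31, -0.33 and -0.29), and that on LAMC1 without control replicate 2 or SS replicate 2 (-0.25 and -0.26). LAMB3, the shortest of these genes and the most abundant, had 287 and 282 CPM in control and 260 and 242 CPM in SS (-0.18, adjusted p = 0.079).

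None of these 4 was called with the offset, where their values ran from -0.04 for LAMA3 to 0.24 for LAMA5, and those of LAMA5 and LAMC1 were above zero. LAMB2, the beta chain of laminins in kidney and synapse basement membranes, had 46.7 and 50.3 CPM in control, 49.6 and 45.8 CPM in SS and 52.1 and 52.0 CPM in SS+NAC. The control and SS libraries overlapped, with a log2 fold change of -0.03 ± 0.08 (adjusted p = 0.82). As genes of its length (5779 bases, chr3:49121114-49133118) had a median of -0.35, it was called higher with the offset, at 0.33 ± 0.074 (adjusted p = 0.025), a call lost without any 1 of the control or SS libraries.

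Of the collagens, those that fell were COL12A1, COL5A2, COL8A1, COL4A1, COL27A1 and COL18A1. COL12A1, a collagen that decorates the surface of fibrils, had 34.7 and 40.9 CPM in control, 23.8 and 24.9 CPM in SS and 41.5 and 33.3 CPM in SS+NAC. Its log2 fold change of -0.64 ± 0.12 (edgeR adjusted p = 0.0021) was near the median of -0.52 for genes of its length. COL5A2, a chain that regulates fibril width, went from 34.9 and 36.5 CPM to 28.2 and 24.1 CPM (-0.45, adjusted p = 0.0052). COL8A1, a network collagen of vessel walls and the cornea, went from 11.4 and 11.3 CPM to 9.06 and 7.58 CPM (-0.45, adjusted p = 0.016). As a shorter gene with a neighbours' median of -0.01, it was at -0.41 with the offset (adjusted p = 0.065). COL9A3, a collagen of cartilage fibrils, was higher, with 8.67 and 7.74 CPM in control and 9.85 and 11.0 CPM in SS (0.35 ± 0.13, adjusted p = 0.0499), and was at 0.25 with the offset (adjusted p = 0.23). Without any 1 of the control or SS libraries COL9A3 was not called, at 0.27 to 0.43 with adjusted p-values of edgeR up to 0.247. The call on COL8A1 was lost without either control library or SS replicate 2 (-0.44, -0.43 and -0.33), and that on COL5A2 without SS replicate 2 (-0.34). COL27A1 and COL18A1, whose values are given here after they were seen (log2 fold changes of -0.28 and -0.20, adjusted p = 0.035 and 0.049), turned to 0.15 and 0.13 with the offset.

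Of the back-to-back pair of type IV genes shown above, COL4A1 was called and COL4A2 was not. COL4A1 went from 91.2 and 94.9 CPM in control to 72.9 and 66.4 CPM in SS (log2 fold change -0.42 ± 0.077, edgeR adjusted p = 0.002). COL4A2 went from 266 and 268 CPM to 242 and 232 CPM (-0.17 ± 0.080, adjusted p = 0.11). Both SS libraries were below control for either gene, the lengths were alike (6625 and 6553 bases), and the difference between the fold changes was not tested. With the offset neither was called, with COL4A1 at -0.01 (adjusted p = 0.95) and COL4A2 at 0.23 (adjusted p = 0.090), so the sign for COL4A2 depended on the length correction.

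The most abundant collagens had no call in this comparison. COL1A1 had 580 and 584 CPM in SS beside its control values above (log2 fold change -0.11, adjusted p = 0.32, and 0.23 with the offset), COL6A1 118 and 102 CPM beside 113 and 107 CPM, and COL6A2 208 and 194 CPM beside 211 and 207 CPM. COL7A1, at chr3:48564073-48595267, encodes the anchoring fibrils that tie the basement membrane to the tissue beneath. It had 70.3 and 63.7 CPM in control and 77.1 and 62.4 CPM in SS, which overlap. Its log2 fold change was 0.06 ± 0.10 (adjusted p = 0.68), against a median of -0.52 for genes of its length of 9287 bases, and with the offset it was 0.57 ± 0.089 (adjusted p = 0.0048). COL5A1, a fibril-width chain at chr9:134641774-134844843, had 53.4 and 51.8 CPM in control and 50.2 and 41.8 CPM in SS. Its fold change was -0.19 ± 0.092 (adjusted p = 0.12), and 0.30 ± 0.081 with the offset (adjusted p = 0.045), so that the sign depended on the length correction. With the offset, the call on COL5A1 was lost without any 1 of the control or SS libraries, and that on COL7A1 without control replicate 2 or SS replicate 1 (0.50 and 0.44).

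**Figure D5:**
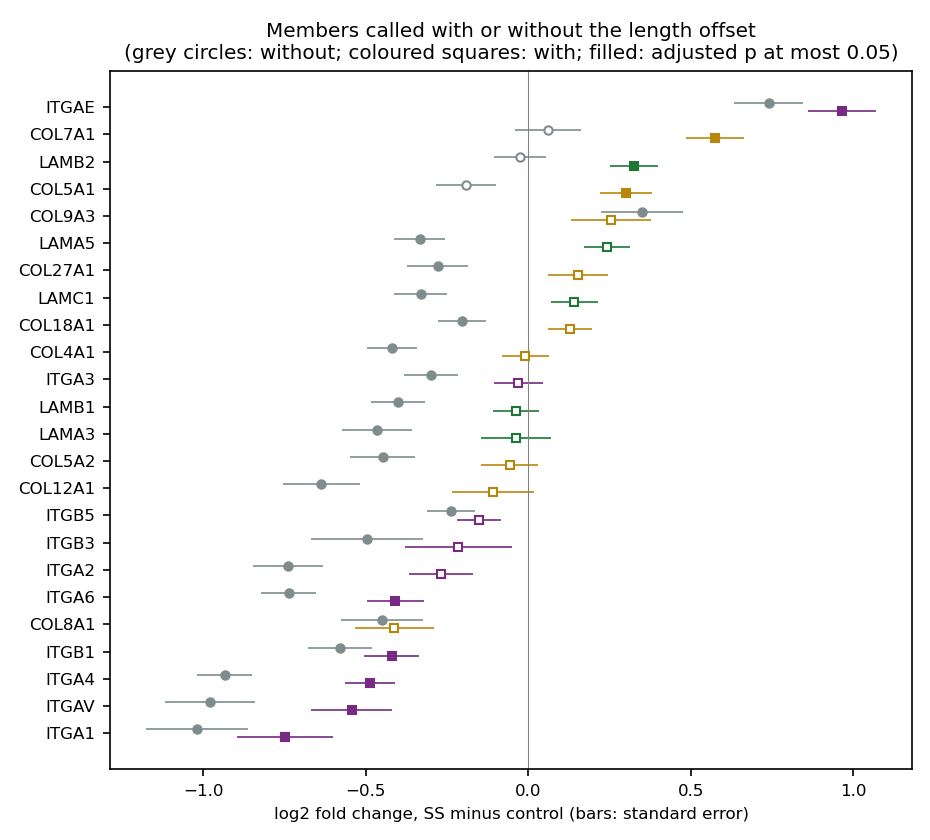
Log2 fold change of SS minus control with its standard error for 24 genes called with or without the length offset. Grey circles are without and coloured squares with the offset, filled where the adjusted p was at most 0.05. The squares of the collagens and laminins, COL8A1 apart, lie around or above 0, and those of ITGA1, ITGAV, ITGA4, ITGB1 and ITGA6 stay between -0.75 and -0.41.

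The second comparison asked how SS differed from SS given with NAC, and it shares its SS libraries with the first. In SS 26 members were lower and 2 higher than in SS+NAC, against 42.7% of all genes called, 23.1% as lower and 19.6% as higher. The median was -0.34 over the members, -0.03 over all genes and -0.33 over the medians of genes of like length. The lower genes were 12 of 26 collagens, 6 of 9 laminins and 8 of 22 integrins. ITGA1 differed most among the lower members, with a log2 fold change of -1.22 ± 0.15 (edgeR adjusted p = 0.00036), followed by ITGA11, a collagen receptor subunit, at -1.05 ± 0.35 (adjusted p = 0.032) and ITGAV at -1.04 ± 0.14 (adjusted p = 0.00043). ITGA11, named here after its values were seen, had 5.71 and 3.24 CPM in SS and 5.67 and 12.9 CPM in SS+NAC, which overlap, with SS+NAC replicate 2 alone above the rest. ITGA4 was at -0.67, ITGB1 at -0.59 and ITGAE at 0.68, each called in this comparison. The higher members were ITGAE and LAMA2 (1.18, adjusted p = 0.031), and the call on LAMA2 was lost when any 1 of the 6 libraries was left out, without a filter on low counts and with a replicate block (adjusted p of edgeR from 0.052 to 0.17). Without SS replicate 2 there were 15 calls among 58 members in place of 28 among 57, and 22.7% of all genes were called in that fit.

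More collagens were called here than in SS against control, a difference in counts that was not tested. COL7A1 had 98.6 and 104 CPM in SS+NAC, above both SS libraries (-0.53 ± 0.10, edgeR adjusted p = 0.0021). COL6A2 had 258 and 274 CPM (-0.41, adjusted p = 0.0019), COL6A1 131 and 153 CPM (-0.37, adjusted p = 0.013) and COL1A1 789 and 685 CPM (-0.34, adjusted p = 0.0092). COL4A1 was at -0.53 and COL4A2 at -0.30 (adjusted p = 0.00061 and 0.011). In SS+NAC both had values above those in SS, with 102 and 98.4 CPM for COL4A1 and 309 and 275 CPM for COL4A2. Without SS replicate 2 the calls on COL6A1 (-0.26), COL1A1 (-0.34) and COL4A2 (-0.27) were lost, as were those on COL6A1 without SS+NAC replicate 2 (-0.25) and on COL4A2 without SS+NAC replicate 1 (-0.22). Of these collagens, only COL6A2 was called with the length offset, as given below. COL7A1 was at -0.04 there, COL6A1 at -0.16, COL1A1 at -0.01, COL4A1 at -0.14 and COL4A2 at 0.08. For COL7A1 the median of genes of its length was -0.53 without the offset.

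With the length offset 7 members were called between SS and SS+NAC, against a background of 14.4% of all genes, 7.03% higher and 7.39% lower. Lower in SS were ITGA1 (-0.96 ± 0.14, adjusted p = 0.0032), ITGAV (-0.63 ± 0.12, adjusted p = 0.010), ITGB1 (-0.43 ± 0.085, adjusted p = 0.011) and COL6A2 (-0.31 ± 0.066, adjusted p = 0.015). Higher in SS were ITGAE (0.90 ± 0.10, adjusted p = 0.00097), COL17A1 and LAMA2. COL17A1, a transmembrane collagen of hemidesmosomes, had 4.01 and 5.12 CPM in SS and 3.89 and 3.07 CPM in SS+NAC, with a value of 0.72 ± 0.20 (adjusted p = 0.043). LAMA2, the alpha chain of muscle laminin, rested on few reads, with 0.741 and 0.868 CPM in SS and 0.373 and 0.332 CPM in SS+NAC (1.68 ± 0.38, adjusted p = 0.019). Its call with the offset was lost without either SS library or SS+NAC replicate 2, and that of COL17A1 held in 1 of 6 fits that each left out a library. Those of ITGAV and ITGB1 were lost without SS replicate 2 (-0.55 and -0.38), and that of COL6A2 without either SS library. The offset counts ranged from 2 without SS replicate 2 to 13 without SS+NAC replicate 1, beside 2.40% and 26.7% of all genes.

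The third comparison set SS+NAC against control, and shares its libraries with both others. In it 3 members were called, against 2.01% of all genes, 1.36% as higher and 0.657% as lower. COL7A1 was higher by 0.59 ± 0.10 (edgeR adjusted p = 0.014) and COL6A2 by 0.35 ± 0.075 (adjusted p = 0.045), while ITGA6 was lower at -0.54 ± 0.084 (adjusted p = 0.0094). The same 3 were called with the offset, at 0.61, 0.34 and -0.53, against 2.01% of all genes, 1.35% higher and 0.664% lower. Leaving out either control library left 0 calls by edgeR, with 9 members under an unadjusted p of 0.05 each time, and leaving out SS+NAC replicate 1 gave 7. Of all genes, 0.684 and 0.690% were called without control replicate 1 and 2, and 7.61% without SS+NAC replicate 1. The call on COL6A2 held in 1 of the 6 fits that each left out a library (0.30 to 0.39), and was also lost with DESeq2 size factors, without a filter on low counts, with the compared libraries only and with a replicate block (adjusted p from 0.056 to 0.13), while those on COL7A1 and ITGA6 held under each of these 4 settings. The median over the members was 0.09, with 37 of 57 above zero, and -0.002 over all genes. For ITGA6, the values of SS minus control and of SS+NAC minus control thus had the same sign. SS and SS+NAC were not called different from each other for this gene (-0.20, edgeR adjusted p = 0.085). With the offset that value turned to 0.12 (adjusted p = 0.38), and 1 alternative setting called the difference.

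Other genes of matrix assembly and adhesion were counted from lists written by function. Of 14 tested basement membrane and matrix glycoproteins other than laminins and collagens, 7 fell and none rose in SS against control, with a median of -0.26. Over all tested genes 21.4% fell and 18.6% rose, and in the eighth of genes that holds the median length of this list (5937 bases) 49.1% fell, so 7 of 14 was close to the share for genes of like length. Among them were HSPG2, the core protein of perlecan (-0.63 ± 0.093, edgeR adjusted p = 0.00073), FRAS1 (-0.81, adjusted p = 0.008) and NTN4, a netrin related to laminins (-0.84, adjusted p = 0.041). Fibronectin, FN1, the ligand of ITGA5 and ITGAV, had a mean of 4679 CPM in control, 3976 in SS and 6453 in SS+NAC, and was called between SS and SS+NAC (-0.70 ± 0.12, adjusted p = 0.0013). With the offset that call was lost (-0.24, adjusted p = 0.12), and FN1 was called higher in SS+NAC than in control (0.48, adjusted p = 0.029). In SS against control FN1 was not called (-0.23, edgeR adjusted p = 0.14). Its sign there depended on the length correction, with 0.25 under the offset (adjusted p = 0.13). Both genes of the hemidesmosome plaque fell, DST (-0.72, adjusted p = 0.0002) and PLEC (-0.34, adjusted p = 0.016). Both are long (17584 and 13308 bases), and in the longest eighth of genes 63.5% of the other genes fell. With the offset none of these 2 lists had a call in SS against control, where 5 glycoproteins and 1 plaque gene had an unadjusted p below 0.05. The values there were 0.003 for HSPG2, -0.17 for FRAS1, -0.72 for NTN4 and -0.05 for DST, and that of PLEC turned positive at 0.27 (adjusted p = 0.10).

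Among 23 genes of the adhesion complex that ties integrins to actin, 8 fell and 2 rose, with a median of -0.12, beside 21.4% and 18.6% of all tested genes. The share called, 10 of 23, was close to the 40.0% of all genes. The largest changes were those of TLN2, a talin (-0.52, edgeR adjusted p = 0.0068), TNS1, a tensin (-0.48, adjusted p = 0.0017), and FERMT1, a kindlin (-0.47, adjusted p = 0.0029). With the offset TLN2 and TNS1 turned to 0.06 each and FERMT1 was at -0.17, none of them called. Only PARVA, a parvin, was called there, at 0.43 (adjusted p = 0.0031), beside 9.23% of all genes. Between SS and SS+NAC 3 of the 23 were higher in SS and 6 lower without the offset. With it 5 were higher, among them TLN2 (0.49, edgeR adjusted p = 0.029), and 0 lower, beside 7.03% and 7.39% of all genes. Of 12 other matrix receptors and integrin partners, 3 rose and 1 fell in SS against control, a share called below the 40.0% of all genes. The 3 that rose were the tetraspanins CD9 (0.40, adjusted p = 0.0016), CD81 (0.31, adjusted p = 0.0081) and CD151 (0.26, adjusted p = 0.036), all short genes, and none of the 3 was called with the offset. There CD44, the hyaluronan receptor, was called at 0.30 (adjusted p = 0.025). Between SS and SS+NAC 3 of the 12 were higher in SS and 2 lower, beside 19.6% and 23.1% of all genes. With the offset 2 were lower and 0 higher, beside 7.39% and 7.03%. These were DDR2 (-0.61, edgeR adjusted p = 0.044, and -1.10 without the offset) and BCAM (-0.29, adjusted p = 0.028, and -0.26).

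Of 23 enzymes and chaperones of collagen synthesis, 3 rose and 4 fell, also a share below the 40.0% of all tested genes. PPIB, a prolyl isomerase of the collagen chaperone complex, rose by 0.54 (edgeR adjusted p = 0.00072), and PCOLCE, an enhancer of procollagen cleavage, by 0.61 (adjusted p = 0.0043). ADAMTS3, a procollagen protease, fell by 0.55 (adjusted p = 0.018). With the offset these were at 0.11, 0.32 and -0.19, none of them called. With the offset CRTAP, a subunit of the prolyl 3-hydroxylase complex, was called at 0.45 (adjusted p = 0.0037) as the single call. MIA3, which exports collagen from the endoplasmic reticulum, was the single gene of these lists called in SS+NAC against control without the offset (0.33, adjusted p = 0.045). Of all tested genes 2.01% were called in that comparison. Of 7 crosslinking enzymes 2 were called. PXDN, which crosslinks type IV collagen, fell by 0.58 (adjusted p = 0.00034; -0.17 and not called with the offset) and LOXL1 rose by 0.40 (adjusted p = 0.0021), also with the offset (0.25, adjusted p = 0.040). Of 14 matrix metalloproteinases and inhibitors, 2 rose and 2 fell, and for this list as for the crosslinking enzymes the share called was below 40.0%. MMP9, a gelatinase, was low at 0.527 ± 0.041 CPM in control and 1.25 ± 0.21 CPM in SS (1.24, adjusted p = 0.016), and MMP24 at 0.640 ± 0.12 and 0.180 ± 0.069 CPM (-1.82, adjusted p = 0.023), and with the offset neither was called (1.14 and -1.63). MMP16 fell from 26.0 ± 0.068 to 13.6 ± 1.0 CPM (-0.93, adjusted p = 0.00018) and was the single member of its list lower with the offset (-0.40, adjusted p = 0.025), where TIMP3 was higher (0.29, adjusted p = 0.023). Between SS and SS+NAC, 6 of the 14 were lower in SS and 1 higher, beside 23.1% and 19.6% of all genes. With the offset MMP17 alone was called in that comparison (-0.45, edgeR adjusted p = 0.0185), beside 14.4% of all genes. There 2 of the 23 synthesis genes were higher and 4 lower without the offset. With it CRTAP was higher (0.39, adjusted p = 0.0053) and 3 were lower, among them PCOLCE2 (-0.53, adjusted p = 0.046) and PLOD2 (-0.50, adjusted p = 0.041). Of the crosslinking enzymes, TGM2 was then higher (0.47, adjusted p = 0.013) and PXDN lower (-0.23, adjusted p = 0.049).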

How the data were processed

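Polyadenylated RNA was captured, fragmented, copied from random primers and sequenced as single-end reads (BGIseq500). Filtering was done by the authors with SOAPnuke, and, per the submitters' processing notes, HISAT2 2.0.4, Bowtie2 2.2.5 and RSEM 1.2.12 were used. The genome build and annotation behind the counts are not given in the sources used here. The deposited table holds expected counts per gene that the authors estimated with RSEM. FPKM values stand beside them, and the authors derived these from the counts, the effective length and the depth. Its TPM values, group means and the 9 columns of the authors' own comparisons (fold changes, p-values and q-values) were not used. A number without a unit in the titles of SS samples was not read as a dose.

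Expected counts were rounded. Genes were filtered with filterByExpr, scaled with TMM and tested with the quasi-likelihood test of edgeR 4.0.16 (R 4.3.3) on all 6 libraries, with Benjamini-Hochberg adjustment over 14005 genes. The study names the Bonferroni correction, which was run as an alternative. Libraries of 17645545 to 23810056 counts leave a gene of few counts imprecise, and intervals cover counting error only. Replicates differed by more than sampling noise, with a chi-square per degree of freedom of 3.05 in control, 7.12 in SS and 11.7 in SS+NAC, so no pair was treated as 1 library deposited more than once. This check does not bear on whether replicates were biological. The biological coefficient of variation was 6.74%. Effective length was computed from the counts, totals and FPKM of each gene. It can differ from the exon bases of GENCODE 29, as for ITGA1 (4855 and 10757) and ITGA4 (7334 and 4606). Comparisons with genes of like length were not repeated with another measure of length. The length offset was a lowess fit (span 0.3) of each library's deviation in log2 CPM (prior count 2) on log2 effective length. CPM values use the TMM-scaled library sizes, and ± is SD of 2 libraries for levels and SE for fold changes. The fits were tested on simulated data.

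The rule for the members used names alone, but these families, the lists and the tests were chosen with earlier results of these data known. Named were members called in SS against control with at least 1 CPM (the 12 highest and 12 lowest), the 12 highest in control, those called in SS+NAC against control or with the offset, chains that assemble together, and up to 3 called genes of each list in SS against control. List genes called in the other comparisons are named in part. COL18A1, COL27A1, ITGA11 and ITGB7 were added after their values were seen and are not in the counts of named members. Values of 1 member are not reported here. All 80 symbols were found in GENCODE 29 (GRCh38), and promoter sequences are from RefSeq (GRCh38.p14). Alternatives were DESeq2 1.42.0 size factors and Wald test, other filters on low counts, a fit to the compared groups alone, the length offset, a replicate block, Bonferroni adjustment and omission of single libraries. Python 3.11.15, pandas 2.3.3 and matplotlib 3.10.9 served for tables and plots.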

Additional observations from a re-analysis of the deposited data

How the results depend on the processing

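The 45 calls on named members kept their direction with DESeq2 size factors, other filters, the compared libraries only, a replicate block and the DESeq2 Wald test, and between 1 and 5 of them lost significance under each. The exception was LAMA2 in SS against SS+NAC, which had no adjusted value with at least 10 counts in every library or by the Wald test. With the length offset 23 lost significance and 7 changed sign. The number of members called in SS against control went from 22 to 9 with the length offset, to 7 with offset and replicate block, and to 1 with Bonferroni adjustment, beside 40.0%, 9.23%, 6.07% and 1.57% of all genes. In SS against SS+NAC it went from 28 to 7, 6 and 0 (31 had an unadjusted p under 0.05), beside 42.7%, 14.4%, 9.63% and 1.36%, and in SS+NAC against control to 0 with Bonferroni adjustment (11 unadjusted), beside 0.286%. The lowering of these counts with Bonferroni follows from its construction, and for the length offset the cause was not tested. The median log2 fold change over the members in SS against control was -0.21 with at least 10 counts in every library and 0.042 with the offset, with or without the block. In SS against SS+NAC it was -0.019 with the offset and -0.030 with offset and block. With the offset, and with offset and block, these became positive: in SS against control COL5A1 (0.30 and 0.30), LAMA5 (0.24 and 0.24), LAMB2 (0.33 and 0.33) and LAMC1 (0.14 and 0.14), and in SS against SS+NAC COL4A2 (0.084 and 0.086), COL5A1 (0.10 and 0.10), ITGA2 (0.098 and 0.094), ITGA3 (0.021 and 0.023) and LAMA5 (0.14 and 0.14). Further named members below zero and uncalled in SS against control also turned positive with the offset: COL1A1 (0.23), COL4A2 (0.23), COL4A5 (0.060), COL6A2 (0.036), COL6A3 (0.34), ITGB4 (0.34), ITGB8 (0.042) and LAMB3 (0.014). LAMB2, not called without the offset, was at 0.0045 with at least 10 counts. In SS against SS+NAC the uncalled values of COL4A5 (0.20), ITGA6 (0.12), LAMB2 (0.21) and LAMB3 (0.093) turned from below zero to positive with the offset. Leaving out single libraries gave 12 to 25 members called in SS against control, 15 to 27 in SS against SS+NAC and 0 to 7 in SS+NAC against control, beside 21.8 to 46.1%, 22.7 to 44.4% and 0.684 to 7.61% of all genes. With the offset, in a check chosen after seeing the data, the ranges were 2 to 13, 2 to 13 and 0 to 9, beside 1.49 to 17.3%, 2.40 to 26.7% and 0.425 to 10.1%. The medians ranged from -0.30 to -0.17 and from -0.46 to -0.26 in these comparisons of SS. The log2 fold change in SS against control ranged from -0.10 to 0.20 for COL7A1 and from -0.086 to 0.057 for LAMB2. Of 53 uncalled values of named members, 23 changed sign under an alternative and 7 were called under one.

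The labels do not say that equal replicate numbers belong together, and deviations of same-numbered libraries correlated at 0.11 between control and SS, -0.11 between control and SS+NAC and -0.17 between SS and SS+NAC. With the replicate block as a term, 19 members were called in SS against control, 26 in SS against SS+NAC and 2 in SS+NAC against control, of 57 each, beside 34.7%, 36.7% and 1.51% of all genes.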
